A study of Homo sapiens with 4 samples.

Results

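A set of 36 genes that direct the development of the cerebellum and of other parts of the nervous system was followed in Daoy, a long-established cell line from a human medulloblastoma. The genes were taken by name from the 57820 Ensembl identifiers of the count files, and each of the 36 matched 1 identifier. All but EYA1 and RBM24 encode DNA-binding transcription factors. EYA1 is a transcriptional coactivator and phosphatase that works with sine oculis homeobox factors, and RBM24 is an RNA-binding protein that regulates splicing. The set was split by known role into 4 groups: the granule-cell lineage, midbrain, hindbrain and other patterning genes, progenitor and glial factors, and the DLX and MSX homeobox genes.

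Gene expression was measured by poly(A) RNA sequencing in 4 libraries. In 3 of them, numbered 1 to 3, the cells were labelled wild-type, and in 1 they were labelled as expressing an shRNA against ARID1B, a short hairpin RNA meant to lower this chromatin remodelling subunit by RNA interference. The shRNA was carried by a lentiviral tet-pLKO-puro vector that doxycycline switches on, in a polyclonal population and not in a single clone. The labels give the same treatment for every library, doxycycline at 1 µg/ml for 72 h. Controls were, by the series design, parental cells and cells with the vector only, and which wild-type library is which is not stated, so the 3 were treated as 1 group. Reads counted in genes numbered 12619786, 13228587 and 15390106 in wild-type libraries 1, 2 and 3, and 8792848 in the ARID1B shRNA library. Levels are given as CPM, read counts brought to a common library size, with each library scaled by TMM, a normalization that assumes most genes do not differ. Wild-type levels are means ± SD over the 3 libraries. The shRNA arm has no replicate, so the 3 controls alone gave the spread used for testing, and nothing in the labels says that these were separate cultures. The p-values then measure only the spread between these libraries, which may be technical.

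The targeted gene did not show the labelled difference. ARID1B measured 164, 88.0 and 72.9 CPM across wild-type libraries 1, 2 and 3. The library labelled ARID1B shRNA had 175 CPM, the highest of the 4 (log2 fold change 0.69, SE 0.46, edgeR adjusted p = 0.399). Without wild-type library 1 it was called higher (log2 fold change 1.12, adjusted p = 0.026). The label of that library is therefore used below only as a name, and directions are those of its values relative to wild type. That library also differed from the others by GC content. Over all tested genes the median log2 fold change went from -0.28 in transcripts of 35% to 40% GC to 0.98 in those of 60% to 65% GC. Each result was therefore also computed after removing, library by library, the smooth dependence of counts on GC content and transcript length (called the trend below). Both values are given for the genes named as risen or fallen where they differ in call.

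Cerebellar granule neurons, the most numerous neurons of the brain, arise from the rhombic lip of the hindbrain. ATOH1 specifies their progenitors, ZIC and PAX6 proteins act in these progenitors, and BARHL1 and NEUROD1 mark cells that go on to differentiate. OTX2, GBX2, EN1 and EN2 set up the boundary of midbrain and hindbrain. Medulloblastoma, a tumour of the cerebellum, is divided into the WNT, SHH, Group 3 and Group 4 subgroups, which differ in the cell of origin and in which of these factors they express. Daoy is often used as a model of the SHH subgroup.

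Of the 36 genes, 27 were expressed at 1 CPM or more in each of the wild-type libraries, and 9 were not. The expressed genes ranged from a wild-type mean of 2.75 ± 1.05 CPM for RBM24 to 81.0 ± 32.2 CPM for NFIX (n = 3 each). By the lowest wild-type library, the gene just inside the threshold was GBX2, with 1.55, 2.86 and 4.04 CPM, and the gene just outside it was EOMES, with 0.543, 0.618 and 0.521 CPM. The variation between wild-type libraries was modest for most, with a median coefficient of variation of 18.3% over the 27 genes. It was smallest for SOX11 (7.22%) and largest for GBX2 (44.1%). For 25 of the 27 genes the highest wild-type library stood at most 2-fold above the lowest.

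**Figure D1:**
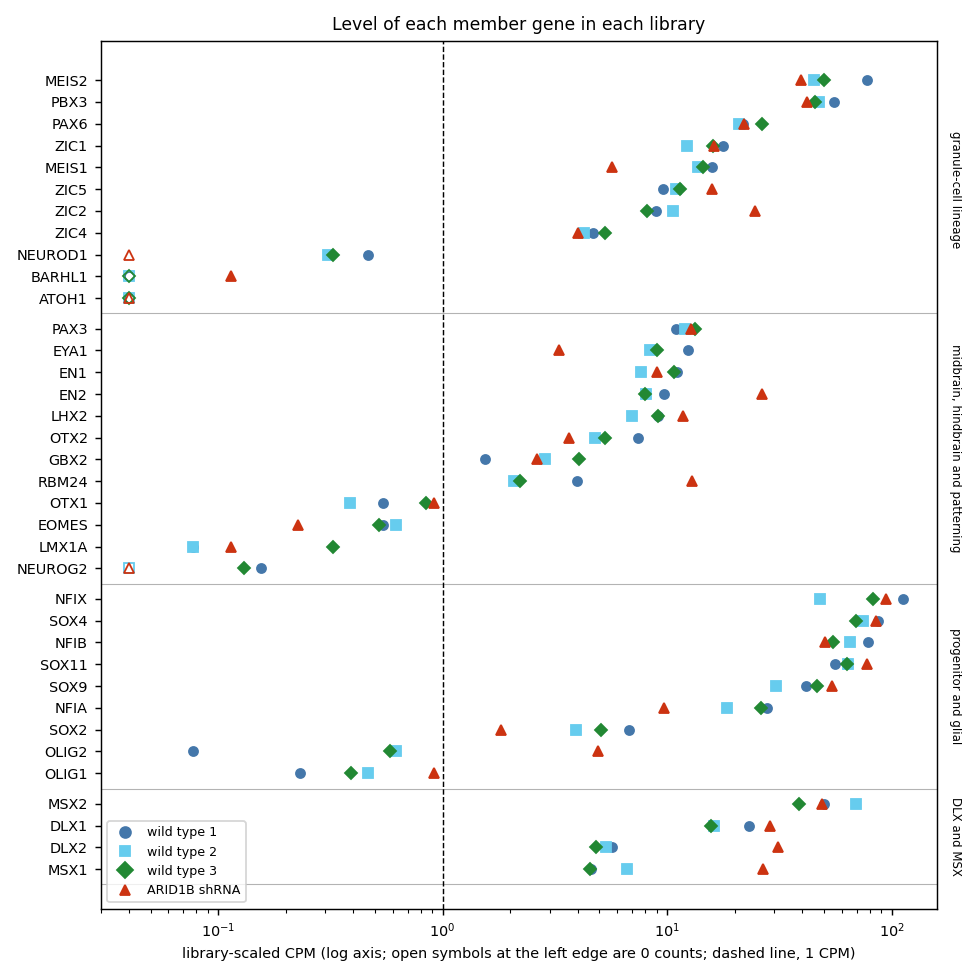
Library-scaled CPM (log axis) of the 36 genes by role, with 1 symbol per library and no error bars; open symbols at the left edge are 0 counts and the dashed line marks 1 CPM. The ARID1B shRNA library lies well to the right of the wild-type libraries for DLX2, MSX1, EN2, ZIC2 and RBM24 and to their left for EYA1, SOX2, MEIS1 and NFIA.

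A filter on low counts left 30 of the 36 genes for testing. OLIG1 and OLIG2 passed it only through the ARID1B shRNA library, where they were highest, so their passing already reflects their level there. Of the 30 genes 5 rose and none fell at an edgeR adjusted p below 0.05: DLX2, MSX1, RBM24, EN2 and ZIC2. Over all 17024 tested genes 4.48% were called: 3.65% rose and 0.834% fell. The members' share of 5 in 30 (16.7%) was above that for increases. As the members were chosen with earlier results of these data known, this excess does not show that the set stands out. At an unadjusted p below 0.05, 6 members were higher and 4 lower, where 15.6% and 9.79% of all genes were. DESeq2 called 6 members higher and 3 lower, where it called 8.92% and 2.77% of the genes to which it gave an adjusted p. It gave none to OTX1 and OLIG1. OLIG2, which passed the filter only through the ARID1B shRNA library, was 1 of the 6 in both counts. The median log2 fold change of the 30 genes was 0.11, beside -0.05 for all tested genes. Once this trend was removed, 3 of the 30 rose, DLX2, EN2 and RBM24, and none fell, beside 2.09% and 0.922% of all genes. Counted without a test, 13 of the 30 lay above all wild-type libraries, 9 below all of them and 8 within their range, beside 35.4% above and 37.9% below among all genes.

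**Figure D2:**
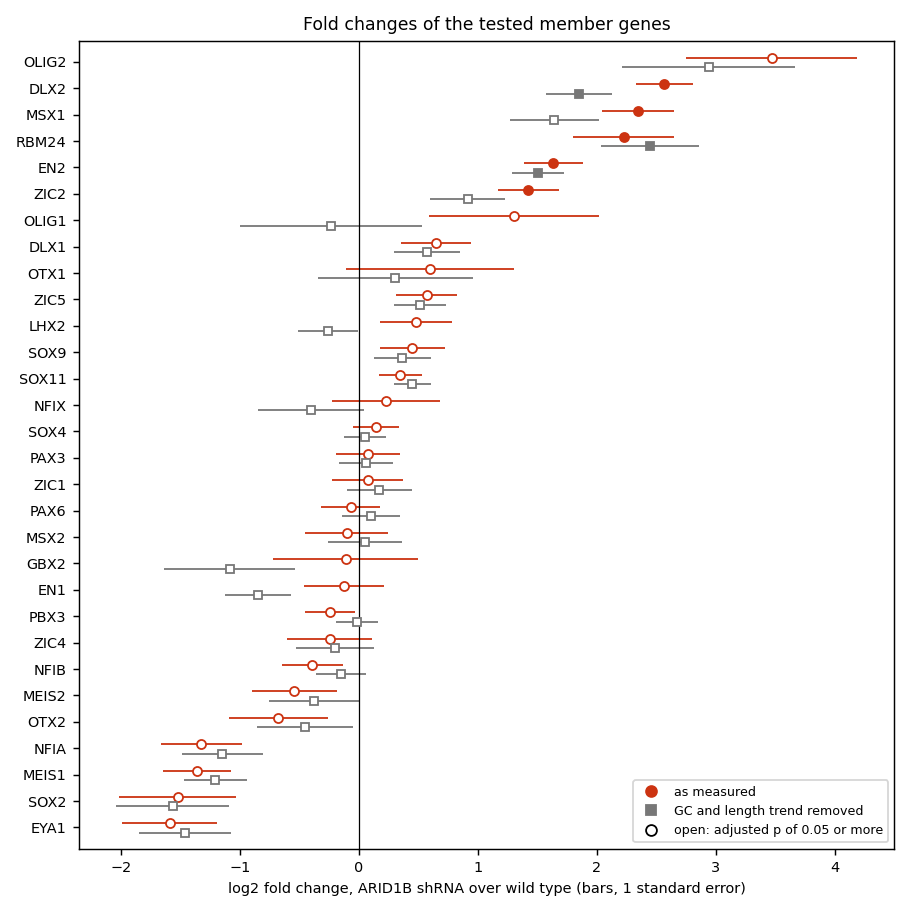
Log2 fold change of the 30 tested genes (x axis, ARID1B shRNA over wild type) with bars of 1 standard error, as measured (circles) and after removal of the GC and length trend (squares); filled symbols have an adjusted p below 0.05. The 5 filled circles lie between 1.43 (ZIC2) and 2.57 (DLX2), and the 4 lowest genes, from -1.59 to -1.32, have open symbols.

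The DLX and MSX genes encode homeobox factors. DLX1 and DLX2 drive the development of forebrain inhibitory neurons, and MSX1 and MSX2 act in the dorsal neural tube, the neural crest and the limb, where BMP signals induce them. DLX2 (ENSG00000115844.6) measured 5.67, 5.33 and 4.82 CPM in wild-type libraries 1, 2 and 3 and 31.3 CPM in the ARID1B shRNA library (95% Poisson interval 27.7 to 35.2, counting error only). The ARID1B shRNA value stood far outside the narrow wild-type range, a 5.92-fold increase (log2 fold change 2.57, SE 0.24, edgeR adjusted p = 0.0183). Of the 30 genes, DLX2 alone was called without each wild-type library in turn (adjusted p from 0.00327 to 0.049) and with the trend removed (log2 fold change 1.85, adjusted p = 0.0339). MSX1 (ENSG00000163132.6) measured 4.58, 6.65 and 4.56 CPM in wild type, against 26.8 CPM in the ARID1B shRNA library (interval 23.5 to 30.5). The wild-type libraries did not reach the ARID1B shRNA level, and the increase was 5.09-fold (log2 fold change 2.35, SE 0.30, edgeR adjusted p = 0.0262). The MSX1 call ended with the trend removed (log2 fold change 1.64, adjusted p = 0.0848) and without wild-type library 3 (0.0587).

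The paralogues of these genes did not pass. DLX1 measured 23.2, 16.2 and 15.6 CPM in wild type, against 28.7 CPM in the ARID1B shRNA library, above each wild-type library (log2 fold change 0.65, SE 0.30, edgeR adjusted p = 0.238). MSX2, the highest of the 36 genes per kilobase of transcript at 23.6 CPM per kb in wild type, measured 50.2, 69.5 and 38.7 CPM and 49.2 CPM in the ARID1B shRNA library, inside the wild-type range (log2 fold change -0.10, SE 0.35, adjusted p = 0.88). Among 9 genes that respond to BMP signals, 1 rose, ID1, a dominant-negative partner of bHLH factors, at 28.3 ± 3.31 CPM in wild type (n = 3) and 97.0 CPM (1.77 on the log2 scale, edgeR adjusted p = 0.0206). At an unadjusted p below 0.05, 5 of the 9 were higher and none was lower, and DESeq2 called 4 higher and none lower, beside 15.6% and 8.92% higher among all genes by the same rules. Counted without a test, 5 of the 9 lay above all wild-type libraries, 1 below and 3 within, beside 35.4% above and 37.9% below among all genes. ID2 was the 1 below, at 19.2 CPM (log2 fold change -0.83, edgeR adjusted p = 0.393). ID4, SMAD9 and BAMBI lay within the wild-type range, at -0.27, -0.04 and -0.33. The median log2 fold change of these 9 genes was 0.88 as measured and 0.31 with the trend removed. A part of BMP signals in the MSX1 value was not tested.

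Promoters are shown for 4 of the 5 genes that rose, to let their base composition be seen, and for MEIS1, a gene with a low value in the ARID1B shRNA library, as a contrast chosen after its value was seen. The window of ZIC2 overlaps an exon of that gene and is not shown. That of DLX2 is shown and holds no exon of DLX2, but it overlaps an exon of 1 other gene. RefSeq windows of GRCh38.p14 were matched to 30 of the 36 genes by symbol. Each sequence below is the 250 bases before the annotated start, 5′ to 3′ on the gene's strand, at chr2:172102901-172103150 (minus strand) for DLX2, chr4:4859415-4859664 (plus) for MSX1, chr7:155457879-155458128 (plus) for EN2, chr6:17281814-17282063 (plus) for RBM24 and chr2:66434875-66435124 (plus) for MEIS1. The count files used another build, GRCh37, and give no coordinates. Capitals mark GC boxes, GGGCGG or its reverse complement CCGCCC.
DLX2: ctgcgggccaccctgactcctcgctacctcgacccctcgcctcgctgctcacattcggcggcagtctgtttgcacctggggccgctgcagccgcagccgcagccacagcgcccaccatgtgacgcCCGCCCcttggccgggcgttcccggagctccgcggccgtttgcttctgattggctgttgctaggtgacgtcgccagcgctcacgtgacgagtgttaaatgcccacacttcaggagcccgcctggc
MSX1: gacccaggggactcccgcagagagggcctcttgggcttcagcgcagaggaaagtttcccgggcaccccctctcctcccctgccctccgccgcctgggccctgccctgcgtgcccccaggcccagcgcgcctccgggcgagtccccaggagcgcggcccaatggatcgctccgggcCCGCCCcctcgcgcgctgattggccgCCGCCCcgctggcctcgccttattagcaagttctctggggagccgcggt
EN2: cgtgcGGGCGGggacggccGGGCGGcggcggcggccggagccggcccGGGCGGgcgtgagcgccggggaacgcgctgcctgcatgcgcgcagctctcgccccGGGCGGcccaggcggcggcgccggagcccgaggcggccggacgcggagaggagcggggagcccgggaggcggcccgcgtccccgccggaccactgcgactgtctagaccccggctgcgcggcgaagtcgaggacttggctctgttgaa
RBM24: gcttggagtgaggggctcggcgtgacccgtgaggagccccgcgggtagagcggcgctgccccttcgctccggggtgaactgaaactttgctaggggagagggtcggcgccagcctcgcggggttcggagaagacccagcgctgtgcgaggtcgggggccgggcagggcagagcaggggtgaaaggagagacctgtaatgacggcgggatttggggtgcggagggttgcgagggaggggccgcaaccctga
MEIS1: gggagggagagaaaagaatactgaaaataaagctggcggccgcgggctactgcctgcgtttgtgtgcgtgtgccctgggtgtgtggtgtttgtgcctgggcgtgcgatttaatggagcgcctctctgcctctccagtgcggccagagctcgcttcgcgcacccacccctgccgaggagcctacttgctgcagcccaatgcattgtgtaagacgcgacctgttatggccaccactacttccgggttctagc

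The windows of the 4 genes that rose were 68.0% (DLX2), 74.0% (MSX1), 81.2% (EN2) and 69.2% (RBM24) GC, and that of MEIS1 was 59.6%. The median over 35116 RefSeq windows of the same length was 58.0%. High GC content was not limited to genes that rose: GBX2 had a window of 72.0%, PBX3 one of 75.6%, OTX1 one of 75.2%, and among several windows NFIB had one of 82.0% and NFIA one of 77.2%. CpG dinucleotides numbered 25, 24, 45 and 23 in the windows of DLX2, MSX1, EN2 and RBM24 and 16 in that of MEIS1, beside a median of 11. EN2 held 4 GC boxes, MSX1 2 and DLX2 1, and RBM24 and MEIS1 held none in these bases. A GC box on either strand was present in 42.6% of all windows.

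Among the patterning genes EN2 and RBM24 rose. EN2, an engrailed homeobox factor of the midbrain and cerebellum, measured 9.70, 8.04 and 7.94 CPM in wild type, against 26.6 CPM in the ARID1B shRNA library (interval 23.3 to 30.2). The wild-type libraries lay close together and the increase was 3.10-fold (log2 fold change 1.63, SE 0.25, edgeR adjusted p = 0.0323). It was 1.51 on the log2 scale with the trend removed (adjusted p = 0.0329), and the call ended without wild-type library 2 or 3 (0.064 and 0.0672). Its paralogue EN1 measured 11, 7.65 and 10.7 CPM in wild type, against 9.01 CPM in the ARID1B shRNA library, within the wild-type range (log2 fold change -0.12, SE 0.34, edgeR adjusted p = 0.847). With the trend removed EN1 was at -0.85 (SE 0.27, edgeR adjusted p = 0.151). RBM24, used as a marker of Group 4 medulloblastoma, measured 3.96, 2.09 and 2.21 CPM in wild type, against 12.9 CPM in the ARID1B shRNA library (interval 10.6 to 15.5). The increase was 4.68-fold (log2 fold change 2.23, SE 0.42, edgeR adjusted p = 0.0479) and 2.45 on the log2 scale with the trend removed (adjusted p = 0.0437). It lay just under the threshold and ended without wild-type library 2 or 3 (0.086 and 0.111) and with upper-quartile scaling.

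The other patterning genes did not pass. EYA1, a marker of the SHH subgroup, had the lowest fold change of the 30 genes: 12.4, 8.43 and 9.05 CPM in wild type, against 3.31 CPM in the ARID1B shRNA library. That was below each wild-type library (log2 fold change -1.59, SE 0.40, edgeR adjusted p = 0.0841; DESeq2 adjusted p = 0.0293). OTX2, which specifies forebrain and midbrain and is highly expressed in Group 3 and Group 4 tumours, measured 7.45, 4.79 and 5.27 CPM and 3.65 CPM (log2 fold change -0.68, adjusted p = 0.360). GBX2, its counterpart on the hindbrain side of the boundary, measured 2.62 CPM in the ARID1B shRNA library, inside the wild-type range (log2 fold change -0.11, SE 0.61). With the trend removed GBX2 was at -1.09 (SE 0.55, edgeR adjusted p = 0.297). PAX3, a dorsal neural tube and neural crest factor, measured 10.9, 12.1 and 13.3 CPM and 12.8 CPM, and LHX2, a forebrain and eye factor, 9.16, 6.96 and 9.11 CPM and 11.7 CPM. PAX3 lay inside the wild-type range (log2 fold change 0.08, SE 0.27, adjusted p = 0.88). LHX2 lay above all wild-type libraries and did not pass (0.48, SE 0.30, adjusted p = 0.364), and its value turned to -0.26 with the trend removed. OTX1, a paralogue of OTX2, measured 0.543, 0.386 and 0.846 CPM in wild type, against 0.912 CPM in the ARID1B shRNA library (log2 fold change 0.60, SE 0.71).

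EOMES, LMX1A and NEUROG2 were too low to test. EOMES, a factor of unipolar brush cells and a Group 4 marker, had 7, 8 and 8 counts in wild type and 2 in the ARID1B shRNA library. LMX1A, a roof plate and rhombic lip factor, had 1, 1 and 5 counts and 1. NEUROG2, a proneural bHLH factor, had 2, 0 and 2 counts and 0.

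In the granule-cell lineage ZIC2 rose. ZIC2, a zinc finger factor of the dorsal neural tube and cerebellum, measured 8.93, 10.6 and 8.14 CPM in wild type, against 24.8 CPM in the ARID1B shRNA library (interval 21.6 to 28.3). The increase was 2.69-fold (log2 fold change 1.43, SE 0.26, edgeR adjusted p = 0.043). It was 0.91 with the trend removed and no longer passed (adjusted p = 0.167), and the call also ended with upper-quartile scaling and without wild-type library 2 or 3 (0.0629 and 0.0923). The other ZIC genes did not pass. ZIC1 measured 17.8, 12.3 and 16.1 CPM and 16.2 CPM, inside the wild-type range. ZIC4 measured 4.66, 4.25 and 5.27 CPM and 3.99 CPM, and ZIC5 9.62, 11 and 11.4 CPM and 15.9 CPM (log2 fold change 0.57, adjusted p = 0.232).

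PAX6, a paired homeobox factor of granule precursors and the eye, measured 21.8, 20.9 and 26.6 CPM in wild type, against 22.0 CPM in the ARID1B shRNA library, a log2 fold change of -0.07 with an SE of 0.25. The TALE homeobox factors MEIS1, MEIS2 and PBX3, which bind DNA as partners of HOX and PAX proteins, were each below all wild-type libraries, as were 37.9% of all genes. MEIS1 measured 15.8, 13.7 and 14.5 CPM in wild type, a narrow range, and 5.70 CPM in the ARID1B shRNA library. Its log2 fold change was -1.36 (SE 0.29), just outside the threshold (edgeR adjusted p = 0.0595; DESeq2 adjusted p = 0.0159). MEIS2 measured 77.9, 45.1 and 50.2 CPM and 39.7 CPM (log2 fold change -0.54, adjusted p = 0.391). PBX3 measured 55.3, 47.8 and 45.4 CPM and 41.9 CPM (log2 fold change -0.24, adjusted p = 0.505).

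The defining genes of the lineage were at or near 0. ATOH1 had 0 counts in all 4 libraries, and a count of 0 allows up to 0.233, 0.232 and 0.195 CPM in wild-type libraries 1, 2 and 3 and 0.342 CPM in the ARID1B shRNA library (3 counts each). BARHL1 had 0 counts in wild type and 1 in the ARID1B shRNA library. NEUROD1 had 6, 4 and 5 counts in wild type and 0 in the ARID1B shRNA library. Its exons overlap those of CERKL on the same strand, so some of its reads may have been left uncounted.

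Among the progenitor and glial factors none of the 9 tested genes passed edgeR's test. At an unadjusted p below 0.05, 1 was higher and 2 were lower, beside 15.6% and 9.79% of all genes. DESeq2 called 1 higher, OLIG2, and 1 lower, NFIA, beside 8.92% and 2.77%. OLIG2 was the 1 higher gene in both counts and passed the filter only through the ARID1B shRNA library. SOX2, a factor of neural stem cells, measured 6.75, 3.94 and 5.08 CPM in wild type, against 1.82 CPM in the ARID1B shRNA library (interval 1.04 to 2.96), below each wild-type library (log2 fold change -1.52, SE 0.49, edgeR adjusted p = 0.135). SOX4 and SOX11, which act in early neurons, measured 76.9 ± 8.74 and 61.0 ± 4.40 CPM in wild type (n = 3) and 85.1 and 77.7 CPM. SOX9, which promotes glial fate and maintains stem cells, measured 39.5 ± 8.13 and 54.1 CPM. The log2 fold changes of SOX4, SOX11 and SOX9 were 0.15, 0.35 and 0.45, with edgeR adjusted p of 0.673, 0.281 and 0.348.

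None of the nuclear factor I genes, which promote glial differentiation and granule neuron maturation, passed edgeR's test. NFIA measured 27.9, 18.5 and 26.3 CPM in wild type, against 9.70 CPM in the ARID1B shRNA library, below each wild-type library (log2 fold change -1.32, SE 0.34, edgeR adjusted p = 0.0855; DESeq2 adjusted p = 0.0182). NFIB measured 78.9, 65.0 and 54.8 CPM and 50.5 CPM (log2 fold change -0.39, adjusted p = 0.380). NFIX ranged from 47.8 CPM in library 2 to 112 CPM in library 1, and the ARID1B shRNA library at 94.9 CPM lay inside that range. The log2 fold change of NFIX was 0.23 as measured and -0.40 with the trend removed, neither beyond the error.

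OLIG2, a bHLH factor of oligodendrocyte precursors, had 1, 8 and 9 counts in wild type and 43 in the ARID1B shRNA library, or 0.0776, 0.618 and 0.586 CPM against 4.90 CPM (interval 3.55 to 6.61). Its fold change was the largest of the 30 genes and rested on few wild-type counts (log2 fold change 3.47, SE 0.72, edgeR adjusted p = 0.0591; DESeq2 adjusted p = 0.0156). Without wild-type library 1, where it was lowest, OLIG2 had an adjusted p of 0.00978. Since OLIG2 entered edgeR's test only through its level in the ARID1B shRNA library, the edgeR p supports no difference. DESeq2 was run without that filter, but its p rests on the same few wild-type counts and is not taken as support. OLIG1 had 3, 6 and 6 counts in wild type and 8 in the ARID1B shRNA library (log2 fold change 1.30, adjusted p = 0.309), and turned to -0.24 with the trend removed.

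The 36 genes hold 4 pairs that neighbour each other on a chromosome in the RefSeq annotation. The count of DLX2 was 0.244, 0.330 and 0.308 of that of DLX1 in wild-type libraries 1, 2 and 3 and 1.09 times it in the ARID1B shRNA library. For ZIC2 over ZIC5 the ratio was 0.927, 0.965 and 0.714 in wild type and 1.56 in the ARID1B shRNA library. For ZIC1 over ZIC4 it was 3.82, 2.89 and 3.05 in wild type and 4.06, and for OLIG2 over OLIG1 it was 0.333, 1.33 and 1.5 and 5.38. Which gene stands above the line is arbitrary, ZIC4 had 35 counts in the ARID1B shRNA library, and the OLIG pair passed the filter only through that library. Differences within pairs were not tested. ZIC1 and ZIC4 overlap in exons on opposite strands, so reads of the overlap could not be told apart without a stated strand setting. The same holds for EYA1, GBX2, LHX2, LMX1A, MEIS1, MEIS2, NEUROG2, NFIX, OLIG1 and PAX6, whose exons overlap those of other genes on the opposite strand, and for none of the 5 genes that rose. NEUROD1 and SOX11 overlap in exons with other genes on the same strand, where no strand setting separates the reads.

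**Figure D3:**
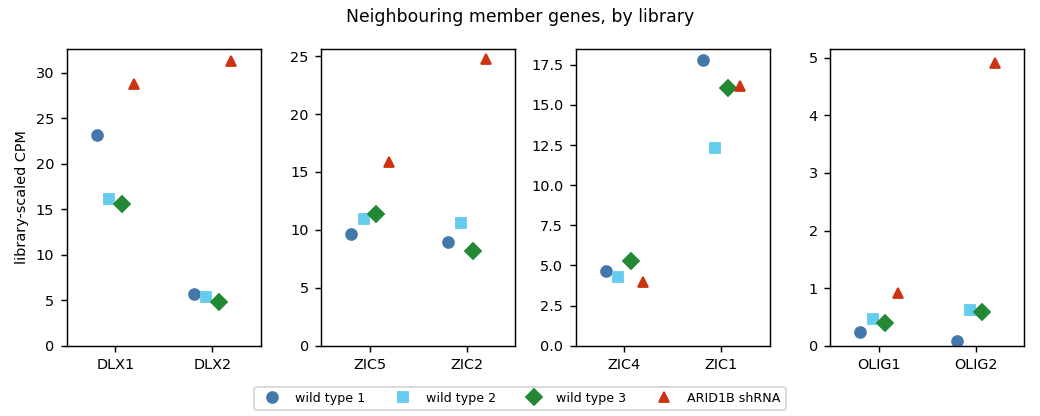
Library-scaled CPM (y axis from 0, a scale of its own in each panel) of the 4 pairs of neighbouring genes, with 1 symbol per library and no error bars. DLX2 (31.3 CPM) and ZIC2 (24.8 CPM) stand apart from the wild-type libraries in the ARID1B shRNA library, while ZIC1 (16.2 CPM) lies among them.

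GC content moved with the fold changes of these genes. DLX2, MSX1 and ZIC2 have transcripts of 59.9%, 59.9% and 58.8% GC and EN2 of 53.3%, whereas EYA1, MEIS1 and NFIA have 43.3%, 41.7% and 41.2%. RBM24, which rose, has 44.0% GC, and SOX2, below all wild-type libraries, has 50.7%. Across the 30 genes, which share the same 4 libraries, the Spearman correlation of log2 fold change and GC content was 0.61, beside 0.47 across 16620 tested genes. With the trend removed the fold changes of DLX2, MSX1 and ZIC2 were 1.85, 1.64 and 0.91 in place of 2.57, 2.35 and 1.43, those of EN2 and RBM24 were 1.51 and 2.45 in place of 1.63 and 2.23, and those of EYA1, MEIS1, NFIA and SOX2 were -1.46, -1.21, -1.14 and -1.56.

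**Figure D4:**
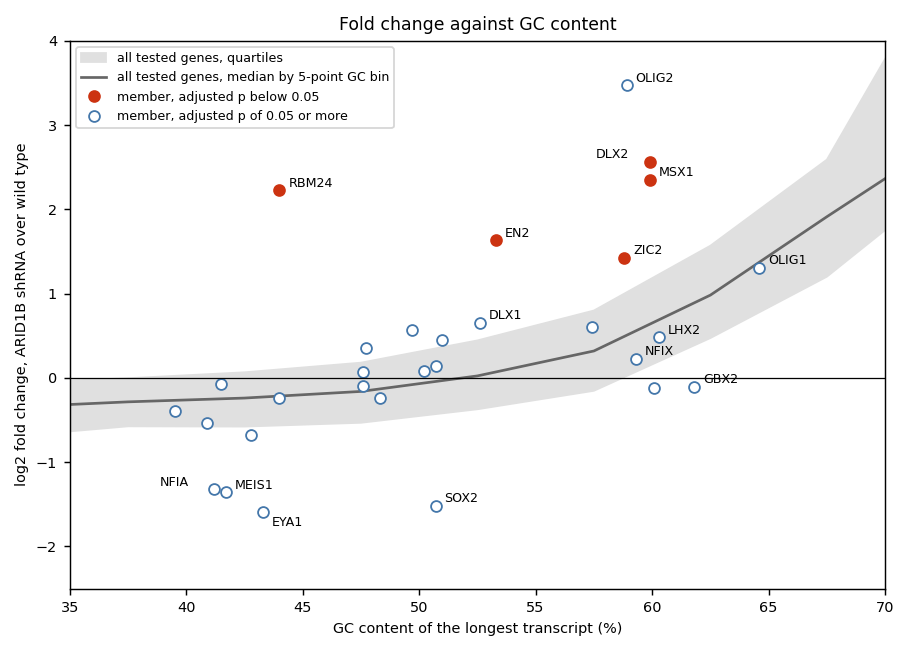
Log2 fold change (y axis, ARID1B shRNA over wild type) against GC content of the longest transcript (x axis, %) for the 30 tested genes, over the median (line) and quartiles (band) of all tested genes in bins of 5 percentage points of GC. All 5 genes that rose lie above the band of their bin, RBM24 at 44.0% GC and DLX2 at 59.9%, while EN1 (60.1% GC) and GBX2 (61.8% GC) lie below theirs.

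Related factors outside the set were counted for comparison. Of 60 other neural developmental factors found in the files, 43 were tested, 5 rose and none fell, with IRX4, IRX3, SIX5 and TCF3 among those that rose. At an unadjusted p below 0.05, 13 were higher and 3 lower, and DESeq2 called 6 higher and 2 lower. Over all genes 3.65% rose and 0.834% fell by edgeR. The shares were 15.6% higher and 9.79% lower at an unadjusted p below 0.05, and 8.92% and 2.77% by DESeq2. IRX4, an Iroquois homeobox factor, measured 0.931, 1.55 and 2.60 CPM in wild type, against 16.9 CPM in the ARID1B shRNA library (log2 fold change 3.29, edgeR adjusted p = 0.0326). TCF3, the common bHLH partner E2A, measured 57.7, 41.1 and 70.8 CPM and 176 CPM (log2 fold change 1.64, adjusted p = 0.0438). The log2 fold changes of IRX3 and SIX5 were 1.74 and 3.95 (edgeR adjusted p of 0.036 and 0.0435). SIX5 had 7, 1 and 11 counts in wild type and 63 in the ARID1B shRNA library. It passed the filter only through that library, as OLIG2 did, so its p supports no difference. After removal of the trend the calls of IRX4, IRX3, SIX5 and TCF3 ended, with log2 fold changes of 0.67, 0.31, 1.67 and 0.69 and adjusted p of 0.376, 0.619, 0.165 and 0.0731. None of the 5 was called when wild-type library 2 was left out. The median of the 43 genes was 0.43 as measured and 0.31 with the trend removed.

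Paralogues and HOX genes did not pass. Of 52 other genes of the same families as the 36, 33 were tested and none was called by edgeR, beside 4.48% of all genes. At an unadjusted p below 0.05, 6 of them were higher and 2 lower, beside 15.6% and 9.79%. DESeq2 called 2 higher and 1 lower, beside 8.92% and 2.77%. HOX genes give position along the body axis, and the cerebellum arises in front of their domain. Of 39 HOX genes, 32 were nonetheless at 1 CPM or more in each wild-type library, with HOXC10 the highest at 34.4 ± 3.63 CPM (n = 3). Of 35 tested HOX genes none was called by edgeR. At an unadjusted p below 0.05, 4 were higher and 1 lower, and DESeq2 called 2 higher and 1 lower, beside the same shares of all genes. HOXA2 had the lowest fold change, at 27.6 ± 3.01 CPM in wild type (n = 3) and 13.3 CPM (-1.05 on the log2 scale, edgeR adjusted p = 0.0778).

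Markers of medulloblastoma subgroups and of mature neural cells were uneven in Daoy. Of 5 SHH markers 4 were at 1 CPM or more in each wild-type library, led by SFRP1 (93.3 CPM) and PDLIM3 (35.4 CPM), while ATOH1 was at 0. Of 5 WNT markers 3 were, led by TNC (1378 ± 404 CPM, n = 3), with WIF1 and DKK2 under 1 CPM. Of 6 Group 3 markers 3 were, and of 6 Group 4 markers 4 were, with KHDRBS2 at 0 in all libraries. TNC had 447 CPM in the ARID1B shRNA library, below each wild-type library. Its log2 fold change was -1.62 (SE 0.38, edgeR adjusted p = 0.078, DESeq2 adjusted p = 0.000435). GAD1 and EMX2, the other tested WNT markers, lay above all wild-type libraries. Among all these markers edgeR called RBM24 higher and OAS1, an interferon-induced enzyme, lower (46.8 ± 9.78 to 11.5 CPM, log2 fold change -2.02, adjusted p = 0.0351), a call that ended without wild-type library 2 or 3 (0.0686 and 0.0549). Of 11 neuron markers found in the files 4 were at 1 CPM or more in each wild-type library, DCX and ELAVL3 were at or near 0, and the summed level was 17.4 to 24.6 CPM in wild type, against 21.4 CPM in the ARID1B shRNA library. Of 10 glial markers 5 were, GFAP, S100B and SOX10 stood under 1 CPM, and the sum was 89.0 to 129 CPM and 98.1 CPM, of which CNP, an enzyme of myelin that other cells also express, gave 75.4 to 118 CPM and 84.5 CPM. The 12 mesenchymal markers summed to 27832 to 34213 CPM in wild type, against 16306 CPM in the ARID1B shRNA library, a sum made up mostly of FN1 (18932, 26801 and 24158 CPM in wild type and 10750 CPM). Of these 12 genes edgeR called 1 lower and 1 higher, beside 0.834% and 3.65% of all genes. At an unadjusted p below 0.05, 6 were lower and 1 was higher, beside 9.79% and 15.6%. DESeq2 called 5 lower and 1 higher, beside 2.77% and 8.92%. The median log2 fold change of the 12 genes was -0.75 as measured and -0.68 with the trend removed. VIM fell, at 2513 ± 125 CPM in wild type (n = 3) and 937 CPM (-1.42 on the log2 scale, edgeR adjusted p = 0.0213), a call that ended without wild-type library 2 (0.0567). TWIST2 rose, at 0.776, 0.618 and 1.69 CPM in wild type and 8.10 CPM (2.94 on the log2 scale, edgeR adjusted p = 0.0448), a call that also ended without wild-type library 2 (0.0784). In bulk RNA fewer cells of a type and less RNA per cell cannot be told apart, and the part of these markers in the values of the 36 genes was not tested.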

How the data were processed

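Poly(A) RNA of Daoy cells was sequenced as 100-nucleotide single reads in 3 wild-type libraries and 1 ARID1B shRNA library, per the labels' protocols. The deposited values were raw read counts per gene, 1 file per library. The tools named in the submitters' processing notes are HTSeq, HISAT2, bcl2fastq and DESeq2, with the GRCh37 (hg19) build. Not given in the sources used here: tool versions, counting mode, strand setting and annotation, so reads of genes that overlap on opposite strands are uncertain. Lines that name no gene were left out of library sizes; reads outside genes made up 5.27% to 7.65% and ambiguous reads 5.93% to 6.75% of genic, ambiguous and non-genic reads.

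Identifiers were matched without their version to current symbols, and 52337 of 57820 (90.5%) matched. Counts were fitted with edgeR 4.0.16 in R 4.3.3: filterByExpr with the groups (minimum count 10, minimum total 15), TMM scaling, glmQLFit with robust shrinkage and glmQLFTest, with Benjamini-Hochberg adjustment over 17024 genes and a threshold of 0.05. Its 2 residual degrees of freedom come from wild type; the ARID1B shRNA library is taken to vary like these. The standard error is the absolute log2 fold change over the square root of F. The GC and length trend is a loess (span 0.3) per library, fitted on genes averaging 20 or more counts, on GC content and then on the length of the longest GENCODE transcript, entered as an offset; 97.6% of tested genes had a GC value. The alternatives tried were DESeq2 1.42.0, scaling by RLE or by upper quartile, dropping the filter, raising it to an average of 50 counts, and leaving out each wild-type library. The fit and the trend removal were tested on simulated counts. No libraries were duplicates: chi-square over degrees of freedom, from gene counts, was 25.8 or more in all 6 pairs. Intervals and floors of 3 counts cover counting error only.

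All 36 genes are accounted for; of each other list up to 4 genes that passed with the smallest p, or else up to 3 with the highest wild-type level, are named, and others were picked after their values were seen. Some genes of these lists that the rule would name are not reported here. The members, lists and tests were chosen with earlier results of these data known. DACH1 and NEFL, of the lists, matched no identifier and were not analysed here.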

Additional observations from a re-analysis of the deposited data

How the results depend on the processing

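Where 763 genes were called over the whole table, DESeq2 called 1781 and edgeR without a filter 3226; leaving out 1 wild-type library gave 157 (without library 2) to 1189 (without library 1). The share of called genes that were higher was 81.4%, against 69.3% after removal of the GC and length trend (355 higher, 157 lower), 70.5% without a filter (2274 and 952) and 93.9% without library 3 (449 and 29). Upper-quartile scaling moved the median log2 fold change of all genes by -0.12. Of the 36 genes 5 were called; 3 were with upper-quartile scaling, 3 with the trend removed, 9 by DESeq2 (6 higher, 3 lower), 10 without a filter (6 higher, 4 lower), and 1 (without library 3) to 6 (without library 1) when a wild-type library was left out. DLX2 was the 1 gene called under every alternative. Among the other developmental factors, paralogues and HOX genes the count of 5 became 14 with DESeq2, 24 without a filter, 1 with the trend removed and 0 (without library 2) to 9 (without library 1) when a library was left out. The cause of these changes was not tested. The number of expressed genes stayed within 1.5 times the main count under each threshold and library choice.

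Signs turned for genes that passed under no setting. With upper-quartile scaling ZIC1 was -0.048 and PAX3 -0.041 on the log2 scale. With the trend removed PAX6 was 0.10, LHX2 -0.26, NFIX -0.40, OLIG1 -0.24 and MSX2 0.052. Over the fits that left out 1 wild-type library, ZIC1 ran from -0.052 to 0.19, PAX6 from -0.13 to 0.041, GBX2 from -0.40 to 0.24, NFIX from -0.028 to 0.53 and MSX2 from -0.29 to 0.16. No paired analysis was possible because the ARID1B shRNA arm has 1 library, which carries no replicate number. Depth limits the 9 genes under 1 CPM, where a few reads set each value.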
